A study of Mus musculus with 25 samples.

Results

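Semaphorins, plexins, neuropilins, ephrins and Eph receptors are the cell-surface and secreted proteins best known for steering axons, and they also act between tumour, vessel and immune cells. They were taken as every entry of the expression table whose symbol is that of a semaphorin, a plexin, Nrp1 or Nrp2, an ephrin or an Eph receptor, which gave 54 of 25006 entries. The 54 hold 20 semaphorins, 9 plexins, 2 neuropilins, 8 ephrins, 14 Eph receptors and 1 antisense RNA, Plxna4os1, whose symbol begins like that of a plexin. The rule reads names only and no measured value, but it was set with earlier results of these data known.

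RNA was sequenced from material labelled as enriched CD8+ T cells of E0771 tumours in C57BL/6 mice. E0771 is a mouse mammary carcinoma line. The control group (label "con") and the anti-CD73 group, dosed with the antibody every 3 days, had 3 libraries each, and the sources used here do not state the control treatment or the age of the mice. CD73, encoded by Nt5e, makes adenosine outside cells, and the comparison asks which transcripts differed when it was targeted. The other 19 of the 25 samples, spleen CD8+ T cells cultured for 7 days, were not analysed here. The labels do not tie replicates to separate animals, so the p-values reflect only variation among these libraries, part of which may be technical.

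Semaphorins bind plexins, either directly or, for most secreted class 3 members, through a neuropilin that serves as the binding subunit. The plexin's inner domain then acts on small GTPases of the Ras and Rap families and on the cytoskeleton. Ephrins are bound to the membrane, by a lipid anchor in class A and by a transmembrane segment in class B, and they activate Eph receptor tyrosine kinases on a touching cell. In the immune system, Sema4d, Sema4a and Sema7a are known as semaphorins of lymphocytes and antigen-presenting cells.

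With all 6 libraries, limma called 0 of 30 tested members, against 0% of the 12262 genes tested, and edgeR also called 0. DESeq2 called 1, Plxna3, against 4.78% of the genes it tested. In the limma fit Plxna3, Sema4a, Nrp1, Sema3b, Sema3f and Sema4d lay higher after anti-CD73 at an unadjusted p under 0.05, and Epha2 lay lower. Of all genes, 8.69% lay higher and 6.82% lower at this p. Control replicate 1 stood apart from the other controls. On the log2 scale it lay nearer the anti-CD73 mean than their mean for 58.5% of all genes and 50% of the tested members. Without control replicate 1, 7 of the 30 members (23.3%) were called, against 22.2% of all genes. Sema4a, Sema4d, Nrp1, Plxnc1 and Plxna3 were then higher, where 11.9% of all genes were called higher, and Sema4b and Efna1 lower, where 10.3% were called lower. The share of members called was thus near that of all genes.

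The promoters of 4 of these genes are shown because they are receptors that were called without control replicate 1 or, for Epha2, were fully separated between groups, and because they have 1 start site each in the table used. They run from 250 bases before to 50 bases after the start site listed there on GRCm38.p6, 5′ to 3′ on the gene's strand. For Plxna3, Nrp1 and Plxnc1 this site lies inside the RefSeq span of the gene, and for Epha2 at the start of that span. Capitals mark a GC box (GGGCGG or its reverse complement CCGCCC) or the cAMP response element (TGACGTCA), which no other marked match overlaps. The windows are Plxna3 at chrX:74328816-74329115 (+), Nrp1 at chr8:128358823-128359122 (+), Plxnc1 at chr10:94944796-94945095 (-) and Epha2 at chr4:141300971-141301270 (+).
Plxna3: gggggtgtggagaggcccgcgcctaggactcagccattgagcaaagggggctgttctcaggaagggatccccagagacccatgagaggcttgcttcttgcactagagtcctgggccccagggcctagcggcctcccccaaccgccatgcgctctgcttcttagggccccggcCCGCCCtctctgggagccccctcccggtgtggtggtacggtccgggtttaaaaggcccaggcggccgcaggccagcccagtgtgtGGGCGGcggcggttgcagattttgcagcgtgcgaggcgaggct
Nrp1: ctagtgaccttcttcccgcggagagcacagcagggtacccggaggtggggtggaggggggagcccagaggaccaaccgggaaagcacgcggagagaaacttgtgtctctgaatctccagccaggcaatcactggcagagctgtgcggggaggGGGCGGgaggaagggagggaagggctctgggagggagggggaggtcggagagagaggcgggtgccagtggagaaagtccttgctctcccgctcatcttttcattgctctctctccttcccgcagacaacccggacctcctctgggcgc
Plxnc1: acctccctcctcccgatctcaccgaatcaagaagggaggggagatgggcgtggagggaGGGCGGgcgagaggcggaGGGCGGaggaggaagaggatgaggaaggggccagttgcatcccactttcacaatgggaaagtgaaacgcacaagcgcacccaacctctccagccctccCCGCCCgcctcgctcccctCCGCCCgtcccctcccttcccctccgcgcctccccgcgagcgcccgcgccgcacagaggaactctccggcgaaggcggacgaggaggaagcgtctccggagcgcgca
Epha2: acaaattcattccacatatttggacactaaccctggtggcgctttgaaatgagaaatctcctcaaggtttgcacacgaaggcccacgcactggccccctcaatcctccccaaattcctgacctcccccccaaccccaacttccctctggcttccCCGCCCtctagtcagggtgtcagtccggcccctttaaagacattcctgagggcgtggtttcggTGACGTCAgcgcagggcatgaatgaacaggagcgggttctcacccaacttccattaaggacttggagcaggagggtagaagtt
Plxna3 held 2 GC boxes, Nrp1 1, Plxnc1 4 and Epha2 1. The promoter table matched 47 of the 54 members with 61 windows. Of these, 46 held a GC box, against 35.7% of all 32851 windows of this length. A TATA box (TATAAA) stood in 1 of the 61, against 13.6% of all windows, and an AP-1 site (TGANTCA) in 3, against 7.81%. Both strands were searched for every motif. The only cAMP response element lay in the Epha2 window (1 of 61, against 1.79% of all windows), 33 bases before the start. The member windows were richer in G and C, with a median of 64% against 52.7%. A match of letters is a description and shows no binding.

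Library depth was between 10180624 and 17161679 recovered reads. The member genes together took between 0.281 and 0.352% of the reads of a library. The 13 T cell markers analysed of 16 listed summed to between 290.1 and 926 normalized counts per library, with Cd8a between 7.60 and 122, while 14 macrophage markers summed to between 9455 and 24869. RNA of other cell types was thus present, and in such bulk material fewer cells of a type and less RNA per cell cannot be told apart. Nt5e stood at 92.4, 55.7 and 67.4 normalized counts in control replicates 1, 2 and 3 and at 100.4, 58.2 and 69.9 in anti-CD73 replicates 1, 2 and 3. The antibody targets the protein, so this level does not check the labels. Across the tested genes, the SD of the log2 difference of control replicate 1 from the mean of the other controls was 0.75, against 0.35 between those others, and for the 30 tested members it was 0.90 against 0.54. Where leaving out control replicate 1 changed the call or the direction of a tested member, both values are given.

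**Figure D1:**
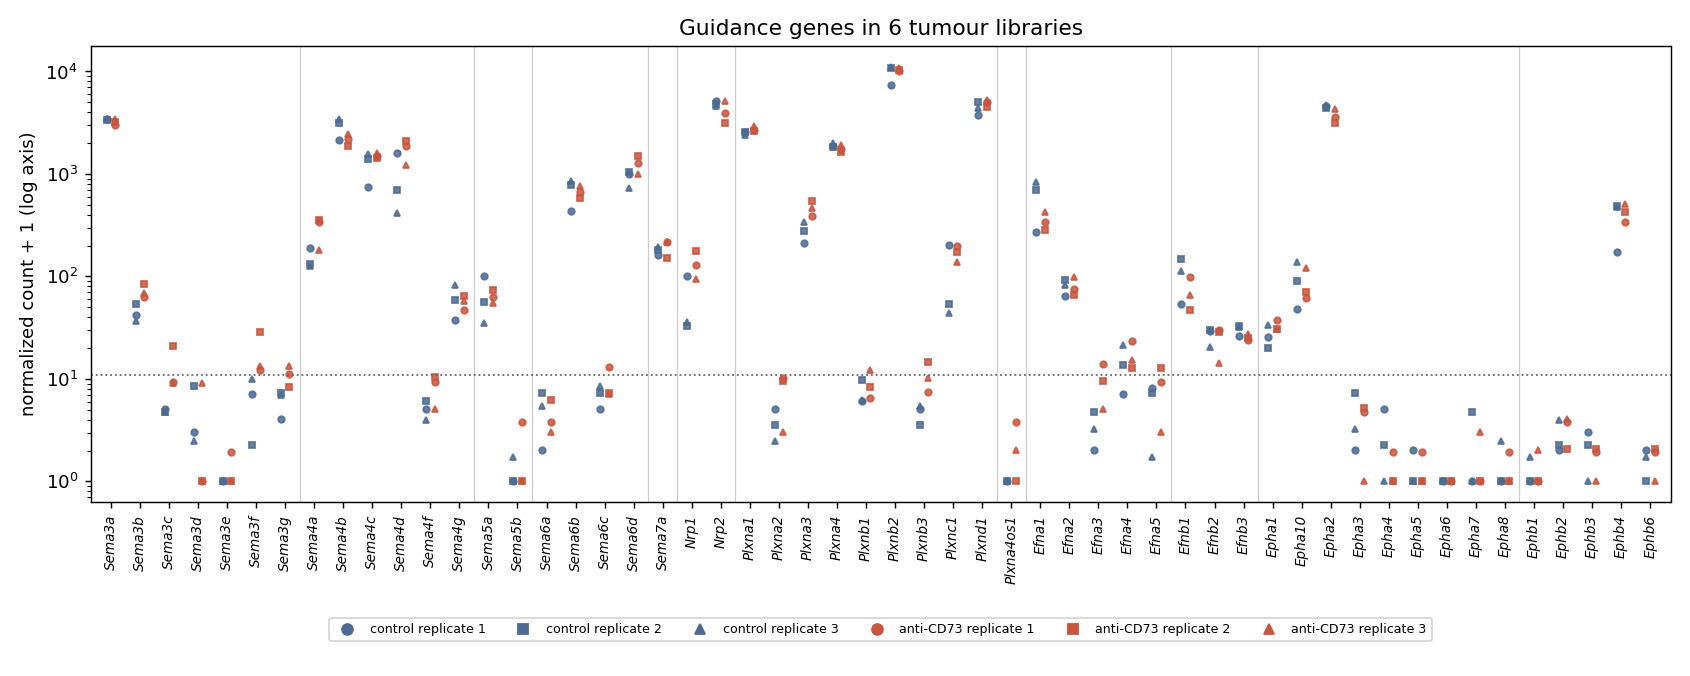
Normalized count plus 1 (log axis) of each of the 54 members, by class from left to right, with controls in blue and anti-CD73 in red and a symbol for each replicate. The dotted line marks a normalized count of 10. Epha6 has no read in any library, and Plxnb2 lies between 7405 and 11140.

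The values are gene counts divided by a size factor per library and are not corrected for gene length, so they compare libraries and not genes. Of the 54 members, 53 had a read in at least 1 library and 30 had a mean of at least 10 normalized counts, the minimum for the test. Among all 30 tested members the median log2 fold change was 0.11, against 0.0039 over all genes tested, with 19 fold changes above 0 and 11 below. The median without control replicate 1 was -0.053, with 14 higher and 16 lower. Anti-CD73 and control libraries were fully separated for 5 members, against 23.5% of all genes: 4 lay higher (background 11.5%) and 1 lower (background 12%). When control replicate 1 was left out, this held for 14 members, against 53.5%, with 8 higher (background 25.7%) and 6 lower (background 27.8%). At an unadjusted p under 0.05, 6 members lay higher, against 8.69% of all genes, and 1 lower, against 6.82%. DESeq2 on recovered reads called 1 member, Plxna3 (adjusted p = 0.0409), against 4.78% of the genes it tested (2.85% higher). The quasi-likelihood test of edgeR called 0 and had 6 members at an unadjusted p under 0.05, against 15.2% of all genes. Without control replicate 1, edgeR and DESeq2 called the same 7 members as limma, against 22% and 21.8% of all genes.

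Class 4 semaphorins are membrane proteins, and 2 of them known from immune cells were higher when control replicate 1 was left out. Sema4d, also called CD100, is a ligand of Plxnb1 and Plxnb2 and, on B cells and myeloid cells, of Cd72. Sema4d (ENSMUSG00000021451) stood at 1609, 691.8 and 413.9 normalized counts in control replicates 1, 2 and 3 and at 1856, 2086 and 1213 in anti-CD73 replicates 1, 2 and 3. Control replicate 1 lay inside the anti-CD73 range, and the other controls lay below all 3 anti-CD73 libraries. Sema4d had a log2 fold change of 1.12 (SE 0.46, adjusted p = 0.311), and 1.64 (SE 0.25, adjusted p = 0.00383) without control replicate 1. Over the 18 alternative settings its adjusted p lay between 0.000124 and 0.782. As a share of all semaphorin reads, which does not depend on the size factors, Sema4d took 8.77% ± 6.55 in controls, against 15.2% ± 3.77 under anti-CD73 (SD, n = 3). The control mean was 5.06% without control replicate 1.

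Sema4a, a ligand on antigen-presenting cells that binds plexins and costimulates T cells, gave 186.8, 131.8 and 124.2 normalized counts in control replicates 1 to 3, compared with 340.3, 352.6 and 178.9 under anti-CD73. Anti-CD73 replicate 3 lay just below control replicate 1, and the other values were apart. Its log2 fold change was 0.93 (SE 0.30, adjusted p = 0.217), and 1.11 (adjusted p = 0.0203) without control replicate 1. Across all 18 alternative settings the adjusted p of Sema4a ran from 0.000708 to 0.713.

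Sema4b, another transmembrane member of the class, went the other way. It had normalized counts of 2160, 3135 and 3434 (controls) and 2179, 1884 and 2442 (anti-CD73). Control replicate 1 again lay among the anti-CD73 libraries. The log2 fold change was -0.40 (SE 0.19, adjusted p = 0.365), and -0.61 (adjusted p = 0.00715) without control replicate 1. Across all 18 alternative settings the adjusted p ran from 6.98e-05 to 0.828. Sema4b took 27.3% ± 5.02 of semaphorin reads in controls, against 19.3% ± 2.83 under anti-CD73 (SD, n = 3). For Sema4a the share was 1.41% ± 0.41 in controls, against 2.57% ± 0.83 under anti-CD73 (SD, n = 3). Sema4d and Sema4a were thus a larger part of all semaphorin reads and Sema4b a smaller part in the means after anti-CD73. In control replicate 1 the shares of Sema4d, Sema4a and Sema4b (16.2, 1.88 and 21.7%) lay within the anti-CD73 ranges. The difference in shares was not tested.

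**Figure D2:**
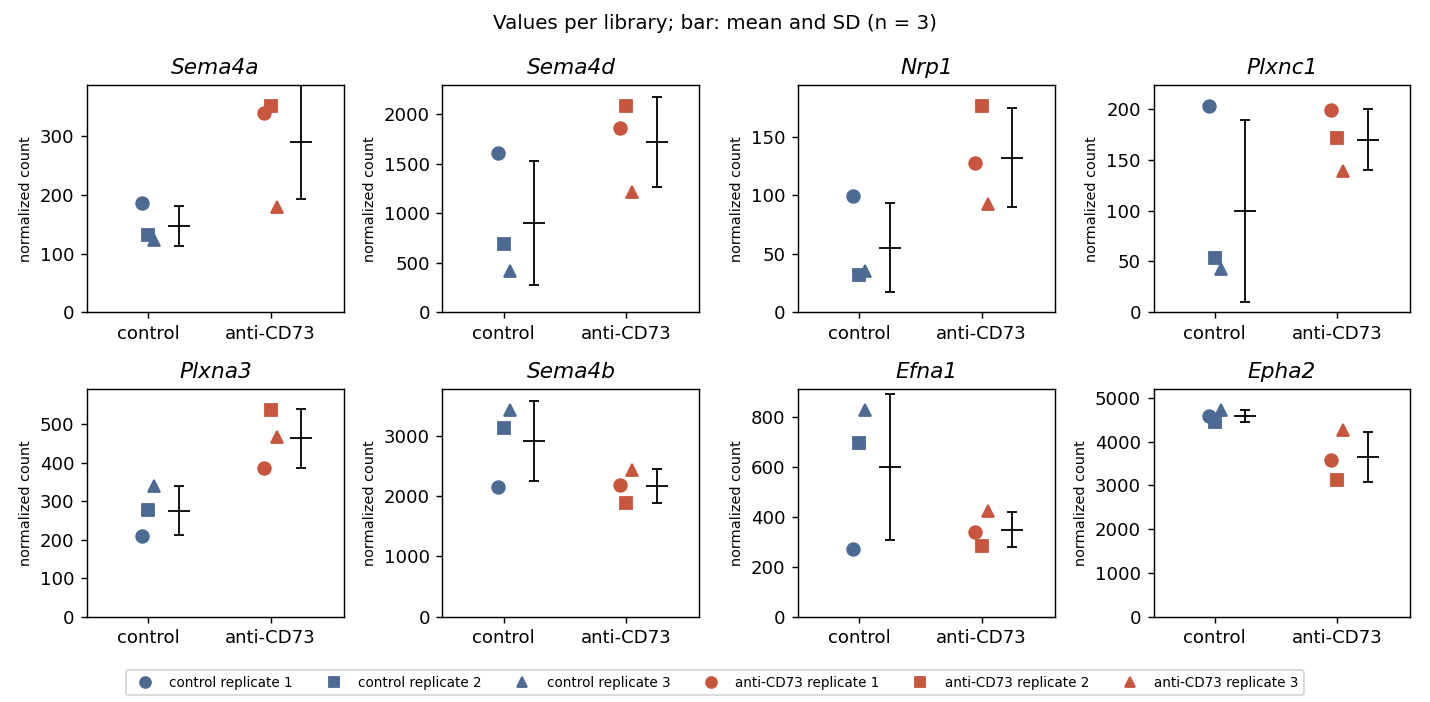
Normalized counts of 8 members per library (linear axes from 0), with the mean and SD of each group (n = 3) as a bar beside the points. Control replicate 1 lies within the anti-CD73 range for Sema4a, Sema4d, Nrp1 and Sema4b, above it for Plxnc1 and below it for Efna1, whereas the groups do not overlap for Plxna3 and Epha2.

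Class 3 semaphorins are secreted and act through neuropilins and plexins. Sema3a, the class member first known for collapsing growth cones, was nearly level, with 3440, 3347 and 3401 normalized counts (controls) and 3008, 3217 and 3458 (anti-CD73). Its log2 fold change was -0.076 (SE 0.10, adjusted p = 0.762). Sema3b and Sema3f both lie on chromosome 9, with 72258 bases and 3 protein-coding starts between them on GRCm38.p6 (107597674 to 107609241 and 107681499 to 107710475), and are known as inhibitors of tumour growth and vessel formation. Sema3b measured 40.6, 53.2 and 35.9 normalized counts across the control libraries, against 61.4, 83.6 and 67.9 across the anti-CD73 libraries. Sema3f gave 6.09, 1.27 and 8.98 normalized counts in control replicates 1 to 3, compared with 11.2, 27.5 and 12.3 under anti-CD73. For both genes the groups did not overlap with all 6 libraries. The log2 fold changes were 0.71 for Sema3b (SE 0.24, adjusted p = 0.239) and 1.62 for Sema3f (SE 0.65, adjusted p = 0.302). Neither was called without control replicate 1 (0.67, adjusted p = 0.088, and 1.81, adjusted p = 0.0919). Sema3f rested on few reads, between 1 and 26 per library.

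Sema3c lay below the minimum for the test, with 4, 3 and 5 reads in the controls and 9, 19 and 8 after anti-CD73. The 95% Poisson intervals, which cover counting error only, were 1.62 to 11.7 reads for the highest control and 3.45 to 15.8 for the lowest anti-CD73 library, and they overlap. Sema3e, the ligand of Plxnd1, had 1 read, in anti-CD73 replicate 1, and the 0 reads of each other library allow up to 3, a one-sided limit for counting error that is lower than the upper end of a two-sided 95% interval. Sema3d and Sema3g had 18 and 46 reads over all 6 libraries and were not tested.

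Sema6d, a ligand of Plxna1, had normalized counts of 992, 1043 and 725.9 (controls) and 1271, 1489 and 988.2 (anti-CD73). Only the lowest anti-CD73 library lay within the control range. The log2 fold change was 0.44 (SE 0.20, adjusted p = 0.345), and 0.50 (adjusted p = 0.088) without control replicate 1. Sema7a, a lipid-anchored ligand of Plxnc1, measured 160.4, 178.6 and 193.8 normalized counts across the control libraries, against 213.9, 150.3 and 214.9 across the anti-CD73 libraries. Its groups overlapped, with a log2 fold change of 0.10 (SE 0.19, adjusted p = 0.831).

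Of the neuropilins, the binding subunits for class 3 semaphorins and for forms of VEGF, Nrp1 lay higher and Nrp2 did not. Nrp1 (ENSMUSG00000025810), known from endothelium, dendritic cells and regulatory T cells, gave 99.5, 31.7 and 35.2 normalized counts in control replicates 1 to 3, compared with 127, 177 and 92.5 under anti-CD73. Control replicate 1 lay above anti-CD73 replicate 3, and the other controls lay below every anti-CD73 library. Nrp1 had a log2 fold change of 1.39 (SE 0.46, adjusted p = 0.227), and 1.91 (SE 0.27, adjusted p = 0.00321) without control replicate 1. The adjusted p of Nrp1 over all 18 alternative settings lay between 1.33e-06 and 0.726. Nrp2, the partner of Sema3f, had normalized counts of 5095, 4808 and 4653 (controls) and 3919, 3153 and 5130 (anti-CD73). Anti-CD73 replicate 3 exceeded every control, and the log2 fold change was -0.28 (SE 0.18, adjusted p = 0.488). Nrp1 made up 1.11% ± 0.702 of neuropilin reads in controls, against 3.41% ± 1.78 under anti-CD73 (SD, n = 3). The control mean was 0.702% without control replicate 1.

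Plexins are the signalling receptors. Plxna3 (ENSMUSG00000031398), which pairs with neuropilins to receive class 3 semaphorins, had the smallest p of all members in the limma fit of all 6 libraries, and the seventh smallest without control replicate 1. It measured 210.2, 277.5 and 339 normalized counts across the control libraries, against 385.9, 537.9 and 466.8 across the anti-CD73 libraries, with groups that did not overlap. Plxna3 had a log2 fold change of 0.76 (SE 0.21, adjusted p = 0.183), and 0.58 (adjusted p = 0.0305) without control replicate 1. The adjusted p over all 18 alternative settings lay between 0.0117 and 0.695. Unlike Sema4d and Nrp1, Plxna3 was lowest of all in control replicate 1.

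Plxnc1, the receptor of Sema7a, gave 203, 53.2 and 42.7 normalized counts in control replicates 1 to 3, compared with 199, 171.5 and 138.8 under anti-CD73. Control replicate 1 was the highest of the 6, and the other controls were the lowest. Plxnc1 had a log2 fold change of 1.11 (SE 0.54, adjusted p = 0.377), and 1.80 (SE 0.21, adjusted p = 0.00201) without control replicate 1. Across all 18 alternative settings the adjusted p ran from 6.06e-09 to 0.788.

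The other 4 tested plexins had log2 fold changes between -0.11 and 0.17 and were not called. Plxnb2, the receptor of several class 4 semaphorins, took 51% ± 4.52 of plexin reads in controls, against 50.7% ± 1.37 under anti-CD73 (SD, n = 3). Leaving out control replicate 1 gave a control mean of 53.5%. Plxnb2 had normalized counts of 7405, 10699 and 11140 (controls) and 10029, 10380 and 10843 (anti-CD73). Its log2 fold change was 0.12 (SE 0.17, adjusted p = 0.775), and it turned to -0.068 without control replicate 1, the lowest library. Plxnd1 measured 3779, 5005 and 4415 normalized counts across the control libraries, against 5083, 4494 and 5245 across the anti-CD73 libraries (log2 fold change 0.17, SE 0.14, adjusted p = 0.58). Plxna1 stood at 2588, 2595 and 2385 and at 2705, 2609 and 2961, groups that did not overlap but differed by only 0.13 on the log2 scale (SE 0.10, adjusted p = 0.595). Plxna4 stood at 1890, 1849 and 1985 and at 1766, 1639 and 1921 (log2 fold change -0.11, SE 0.11, adjusted p = 0.675).

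Plxnb1, the receptor of Sema4d with the highest affinity, had 5, 7 and 7 reads in the controls and 6, 7 and 11 after anti-CD73 and was not tested. Plxna2 and Plxnb3 had 28 and 41 reads over all libraries. Plxna4os1, an antisense RNA within the span of Plxna4, had 3 reads in anti-CD73 replicate 1, 1 in replicate 3 and 0 elsewhere. The sources used here do not state whether counting used strand, so these reads cannot be told apart from Plxna4.

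**Figure D3:**
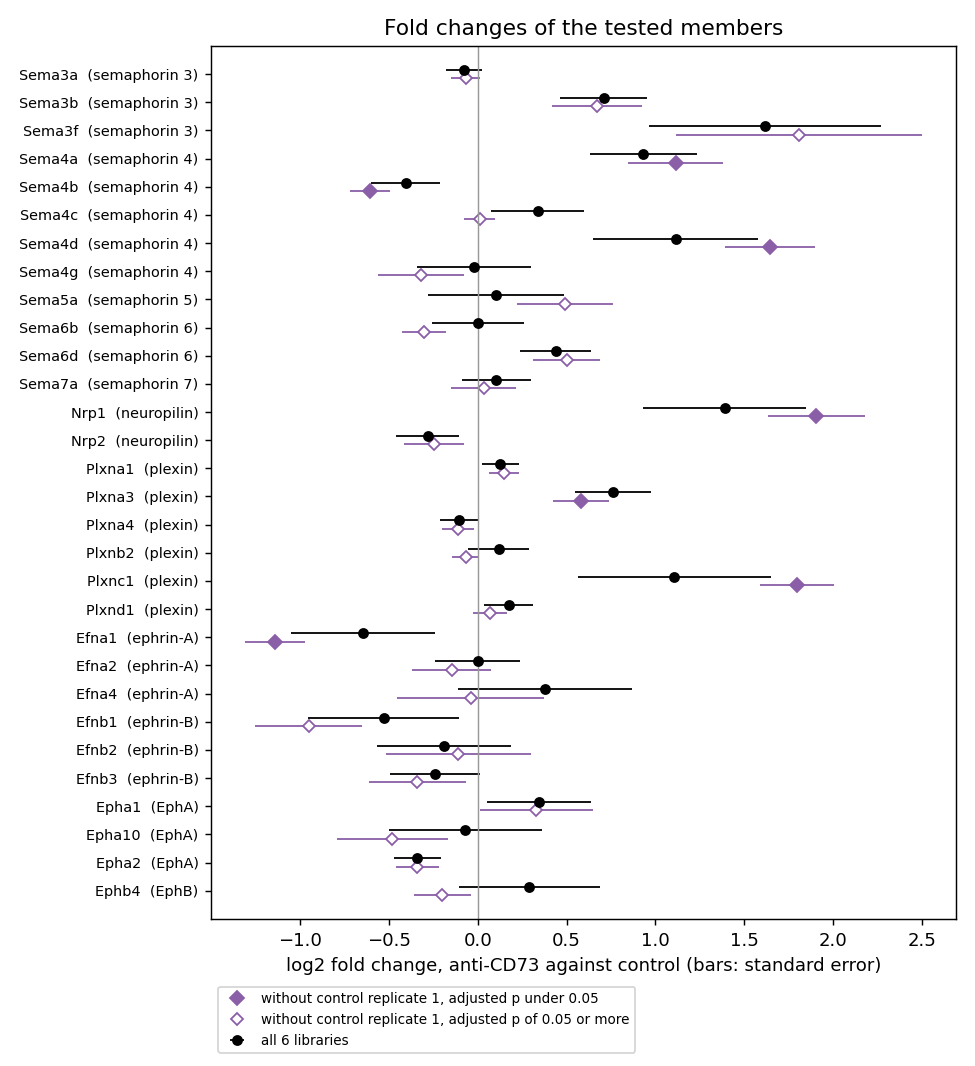
Log2 fold change (anti-CD73 against control) with its standard error for the 30 tested members, with all 6 libraries (black) and without control replicate 1 (purple, filled where the adjusted p is under 0.05). Filled symbols are those of Sema4a, Sema4b, Sema4d, Nrp1, Plxna3, Plxnc1 and Efna1.

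Of the 6 tested ephrins, 4 had fold changes below 0 with all libraries and 6 without control replicate 1, of which 1 was called. Over all genes, 49.5% and 52.1% had fold changes below 0 in these fits, and 10.3% were called lower in the latter. Efna1, a class A ephrin known to be induced by TNF in endothelium and the main partner of Epha2, gave 270.1, 696.9 and 830 normalized counts in control replicates 1 to 3, compared with 338.5, 283.8 and 424.7 under anti-CD73. Control replicate 1 was the lowest of all, and the other controls the highest. Efna1 had a log2 fold change of -0.64 (SE 0.40, adjusted p = 0.485), and -1.14 (SE 0.17, adjusted p = 0.00339) without control replicate 1. The adjusted p of Efna1 over all 18 alternative settings lay between 1.29e-07 and 0.868. Efna3 and Efna4 follow Efna1 on chromosome 3, with 32948 and 10454 bases between neighbours on GRCm38.p6. Efna3, too low for the test, had 1, 3 and 3 reads in the controls and 14, 8 and 4 after anti-CD73, while Efna4 had 6, 10 and 27 and then 24, 11 and 14. Both neighbours were named for their position, after their values were seen. For Efna4 the groups overlapped.

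All 3 class B ephrins, which also signal backward into their own cell, had negative fold changes without passing. Efnb1 had normalized counts of 52.8, 145.7 and 113 (controls) and 96.7, 45.5 and 64.8 (anti-CD73) (log2 fold change -0.53, SE 0.43, adjusted p = 0.59). The value for Efnb1 without control replicate 1 was -0.95 (adjusted p = 0.0512). Efnb2, the arterial ephrin, stood at 28.4, 29.1 and 19.5 and at 28.8, 27.5 and 13.4 (log2 fold change -0.19, SE 0.38, adjusted p = 0.844). Efnb3 stood at 25.4, 31.7 and 31.4 and at 23.2, 24.4 and 26.7 (log2 fold change -0.24, SE 0.25, adjusted p = 0.69).

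Of the 14 Eph receptors only 4 reached the minimum for the test. Epha2, a receptor of epithelial and carcinoma cells, took 90.2% ± 3.95 of Eph reads in controls, against 87% ± 1.69 under anti-CD73 (SD, n = 3). Without control replicate 1 the control mean of this share was 87.9%. Epha2 (chromosome 4, 141301221 to 141329384 on GRCm38.p6) measured 4591, 4450 and 4730 normalized counts across the control libraries, against 3572, 3129 and 4267 across the anti-CD73 libraries. It was the only member to lie lower with groups that did not overlap. Epha2 had a log2 fold change of -0.34 (SE 0.13, adjusted p = 0.293), the same to 2 decimals without control replicate 1 (adjusted p = 0.0747). Ephb4, the venous receptor of Efnb2, gave 172.6, 490.3 and 470 normalized counts in control replicates 1 to 3, compared with 339.4, 420.3 and 512.1 under anti-CD73. Control replicate 1 lay far below the rest, and the log2 fold change of 0.29 (SE 0.40, adjusted p = 0.764) turned to -0.20 without it. Epha6 had no read in any library, Epha4, Epha5, Epha7, Epha8, Ephb1, Ephb3 and Ephb6 had between 2 and 6 over all 6, and Ephb2 and Epha3 had 13 and 17.

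The 8 tested members whose test is not given above (Efna2, Efna4, Epha1, Epha10, Sema4c, Sema4g, Sema5a and Sema6b) had log2 fold changes between -0.07 and 0.38 and adjusted p of at least 0.577 with all libraries. These were, without control replicate 1, -0.48 to 0.49 and at least 0.112, and again none was called. Efna2, Efna4 and Sema6b changed direction with that library left out. Their log2 fold changes were 0.00023, 0.38 and 0.00024 with all libraries and -0.15, -0.040 and -0.30 without control replicate 1. Sema4f, Sema5b, Sema6a, Sema6c and Efna5 had between 4 and 44 reads over all libraries and were not tested.

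Ligands and receptors known to bind each other were set side by side. Without control replicate 1, Sema4d was called higher and Plxnb2 was not called, while Plxnb1 had few reads. In the same fit the receptor Plxnc1 was called higher and its ligand Sema7a was not, Efna1 was called lower and Epha2 was not, and Nrp1 was called higher and Sema3a was not. With all 6 libraries limma called none of these. Neither Sema3f nor Nrp2 was called in either fit, and neither were Efnb2 and Ephb4. Sema3e had 1 read while Plxnd1 had at least 3722 reads per library. These are descriptions of single genes, and no pair was tested as such.

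Other genes of both pathways were taken from lists of known partners. Of 39 tested partners of semaphorins and plexins, limma and edgeR called 0 with all 6 libraries. DESeq2 called 3 (7.69%, against 4.78% of the genes it tested), namely Cd72 (adjusted p = 0.038), Dpysl2 (0.000689) and Rras2 (0.0266). Leaving out control replicate 1, limma called 4 higher and 9 lower (33.3%, against 22.2% of all genes), with a median of -0.082 against -0.085 with all libraries. Cd72, the lectin-like receptor of Sema4d on B cells and myeloid cells, had normalized counts of 243.7, 68.4 and 68.9 (controls) and 401.7, 435.2 and 281.8 (anti-CD73). Its groups did not overlap, and its log2 fold change was 1.80 (SE 0.48, adjusted p = 0.178), or 2.40 (adjusted p = 0.000935) without control replicate 1. The adjusted p of Cd72 over all 18 alternative settings lay between 9.59e-20 and 0.665. Dpysl2, the cytoskeletal protein through which Sema3a acts on microtubules, stood at 1083, 1168 and 1280.5 (controls) and at 716.9, 653.3 and 812.4 normalized counts (anti-CD73) (log2 fold change -0.70, SE 0.13, limma adjusted p = 0.141, and 0.00332 without control replicate 1). Rras2, a GTPase related to the Ras proteins that plexins switch off, had a log2 fold change of -0.50 (SE 0.13, limma adjusted p = 0.175, and 0.0207 without control replicate 1). Over all alternatives the adjusted p ran from 6.44e-07 to 0.665 for Dpysl2 and from 0.00804 to 0.665 for Rras2.

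Of 38 tested partners of ephrins and Eph receptors, limma and edgeR called 0 with all 6 libraries. DESeq2 called 3 (7.89%, against 4.78% of the genes it tested), namely Pik3r1 (adjusted p = 9.1e-05), Anks1 (0.000283) and Arhgef15 (0.0468). Leaving out control replicate 1, limma called 6 higher and 7 lower (34.2%, against 22.2% of all genes), with a median of 0.022 against -0.0055 with all libraries. Anks1, an adaptor that binds Eph receptors, measured 349.3, 449.8 and 444.5 normalized counts across the control libraries, against 704.8, 840.7 and 695.1 across the anti-CD73 libraries, with groups that did not overlap (log2 fold change 0.85, SE 0.15, limma adjusted p = 0.141, and 0.00367 without control replicate 1). Pik3r1, a regulatory subunit of phosphoinositide 3-kinase, had -0.79 (SE 0.13, limma adjusted p = 0.141, and 0.00393 without control replicate 1), and Arhgef15, an exchange factor of the ephexin family, had 0.48 (SE 0.14, limma adjusted p = 0.188, and 0.0268 without it). Over all alternatives the adjusted p ran from 4.45e-06 to 0.665 for Anks1, from 2.49e-06 to 0.665 for Pik3r1 and from 0.0186 to 0.665 for Arhgef15. In both lists the 3 genes named had the smallest p of their list, so the separation given for Cd72 and Anks1 is no further evidence. With all 6 libraries, 4 of the 39 semaphorin and plexin partners lay higher and 8 lower without overlap. For the 38 ephrin and Eph partners these counts were 6 and 6, against 11.5% and 12% of all genes.

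Sums of marker lists differed between libraries as several members did. Higher and lower are here the sign of the limma log2 fold change with all 6 libraries. The macrophage list (13 of 14 tested genes higher, 1 lower) summed to between 9455 and 17170 normalized counts in controls and between 15605 and 24869 after anti-CD73. The dendritic cell list (8 of 8 tested genes higher, none of 9 at 0 in any library) summed to between 849.4 and 4169 and between 2298 and 5199. The T cell list (13 of 13 higher, none at 0) summed to between 290.1 and 926 and between 475.1 and 870.3. Within it, Cd3e had a lower mean after anti-CD73 (21.1 against 23.5), with log2 fold changes of 0.42 by limma, -0.13 by edgeR and -0.15 by DESeq2. Cd5 also had a lower mean, with 44.7, 2.53 and 8.23 in the controls and 22.3, 12.7 and 7.20 after anti-CD73. The endothelial list (6 of 6 higher, 2 of 9 at 0 in some library) summed to between 592 and 1197 and between 1150 and 1777. In each of these lists control replicate 1 lay above the other controls, as it did for Sema4a, Sema4d, Nrp1 and Plxnc1. The tumour epithelial list had 0 of 2 tested genes higher, and Krt14 and Krt5 at 0 in some libraries. It summed to 1960, 3655 and 4658 in control replicates 1, 2 and 3 and to between 2093 and 2702 after anti-CD73. Most of this sum was Krt8, and its order in the controls is that of Efna1, Sema4b and Plxna3. The same order held for Plxnb2, Sema4c, Sema4g, Sema6b, Sema7a, Efna4 and Epha10, none of them called. After anti-CD73, Plxna3 had a higher mean (463.5 against 275.6) and Krt8 a lower mean (2331 against 3335). Krt18 did not follow the order of Krt8, with 89.4, 54.5 and 84.6 in the controls. Cdh1, below the minimum for the test, lay higher (3.74 to 5.08 in controls, 5.14 to 22.2 after anti-CD73). The erythroid list (0 of 4 higher) summed to between 7760 and 58062 and between 8164 and 30592. The neutrophil list (6 of 8 higher, 1 of 9 at 0 in some library) ran from 5829 to 7877 and from 8538 to 15159, the fibroblast list (5 of 8 higher) from 4095 to 5131 and from 5188 to 6071, and the glial and neuronal list (1 of 3 higher, 1 of 7 at 0 in some library) from 579 to 881.6 and from 590.8 to 805.2. The part of these cells in the member results was not tested.

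**Figure D4:**
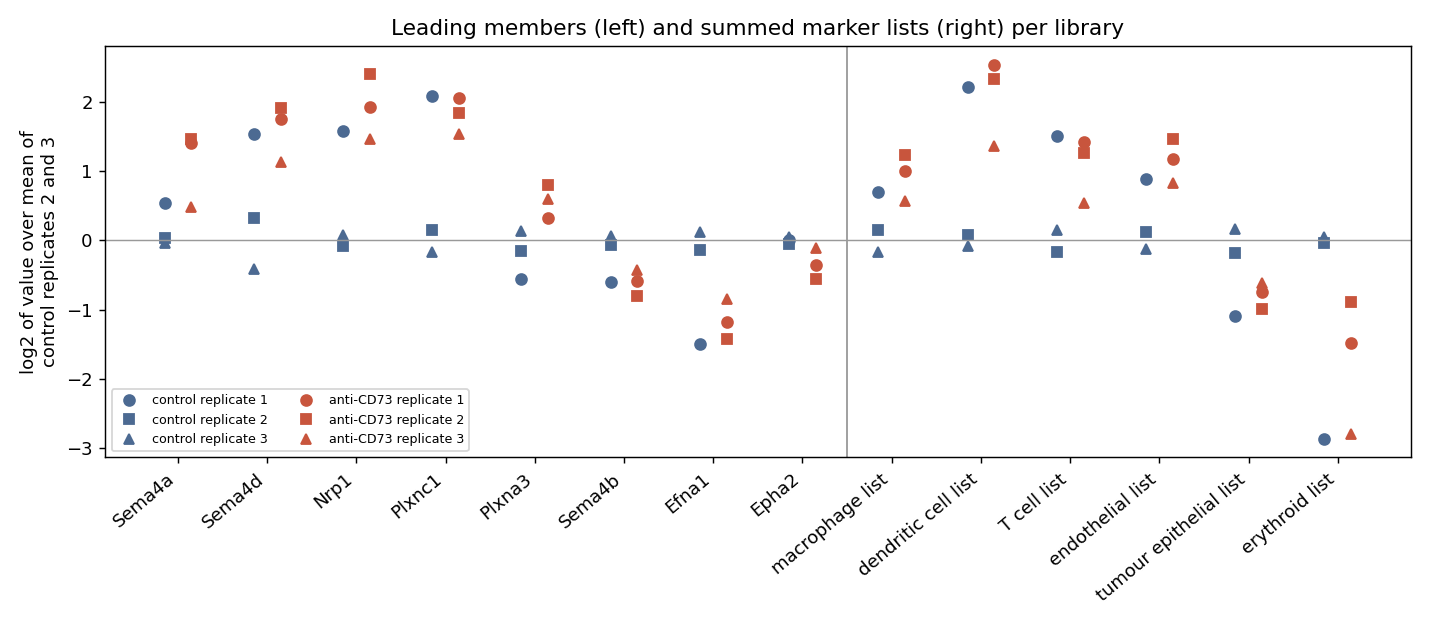
Log2 of each library's normalized count over the mean of control replicates 2 and 3, for 8 members (left of the line) and for the summed counts of 6 marker lists (right), with controls in blue, anti-CD73 in red and a symbol per replicate. Control replicate 1 lies above the other controls for Sema4a, Sema4d, Nrp1, Plxnc1 and the macrophage, dendritic cell, T cell and endothelial lists, and below them for Plxna3, Sema4b, Efna1 and the tumour epithelial and erythroid lists.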

How the data were processed

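RNA-seq values of 6 mouse tumour libraries were used. Titles gave each library's group and number, and table columns were matched by description. Per the labels, the authors normalized gene counts with DESeq, and the deposited signal is the result, a count over its library's size factor. The submitters' processing notes list Bowtie 0.12.7 and mm10 but give them no role. Counter, use of strand, handling of multiply matching reads and annotation release: not given in the sources used here. Whole reads were recovered by dividing by the value of 1 read, and 100% of values came out whole within 0.01. Depth limits genes of few reads, for which Poisson intervals are given.

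Groups were compared by limma-trend (limma 3.58.1, R 4.3.3) on log2(value + 1), two-sided, without a block, over the 12262 genes with a mean of at least 10. Benjamini-Hochberg adjustment ran over all of these genes, and an adjusted p under 0.05 was a call. The added 1 shrinks the changes of genes with few counts. Beside the count tools, limma fold changes were larger for some members and smaller for others. Plxnc1 had 1.11, against 0.80 by edgeR and 0.78 by DESeq2, and Sema4a had 0.93, against 1.00 and 0.99. edgeR 4.0.16 and DESeq2 1.42.0 were run on recovered reads, beside other scalings, pseudocounts, filters, blocks and each library left out. Both count tools without control replicate 1 were added after seeing the data. Members named were the 8 smallest p in each direction and a fixed panel of 20, 25 in all. A further part of the rule, by count per coding length, was not used here, as no coding lengths were at hand. Members and lists were chosen with earlier results of these data known. Scripts were tested on simulated data. Coordinates and promoters are RefSeq's on GRCm38.p6, the assembly of mm10, matched by symbol and 1-based. Figures used matplotlib 3.10.9.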

Additional observations from a re-analysis of the deposited data

How the results depend on the processing

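Of 393 alternative values of the fold changes of the 22 tested members named by rule, 384 kept their direction and 9, of 3 members, did not. Of the 8 other tested members, 6 changed sign with some library left out (Efna2, Efna4, Epha10, Sema4g, Sema5a and Sema6b). The number of genes called was 0 in all settings with every library except DESeq2, with 586, and the replicate block by description number, with 1780. Members called were 1 of 30 in the former, against 4.78% of the genes tested, and 7 of 30 in the latter, against 1780 of 12262 genes. Leaving out one library gave 0 to 2724 genes and 0 to 7 members. Control replicate 1 gave the upper end by limma, and 2703 genes by edgeR, 2679 by DESeq2 and the same 7 members by both. Every other library left out gave 0 by limma. The median of the members ranged from -0.053 (without control replicate 1) to 0.21 with libraries left out. Ephb4 ranged from -0.20 to 0.55, Plxnb2 from -0.068 to 0.23 and Efnb2 from -0.38 to 0.15. The block by description number gave -0.20 for Ephb4 and -0.066 for Plxnb2. In it only 2 numbers are shared, so control replicate 1 and anti-CD73 replicate 2 have no part in the fold change. Without control replicate 1, edgeR and DESeq2 gave -0.029 and -0.030 for the median of the members, -0.17 and -0.17 for Ephb4 and -0.055 and -0.054 for Plxnb2. The replicate block by title number called 0 genes and 0 members. Same-numbered libraries had correlations of deviations of 0.189, -0.0963 and 0.262. Control replicates 1 and 3 correlated best with their own number, and control replicate 2 did not. With 3 libraries per group these correlations cannot decide whether the numbers pair the libraries. Genes with few reads, such as Sema3c, Sema3e and Plxnb1, are limited by depth.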

Other observations

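Genes of the other guidance families, the Slit ligands with Robo receptors and the netrins and RGM proteins with their receptors, were also measured. Of 23 listed, 12 were tested, and of these limma and edgeR called 0 with all 6 libraries. DESeq2 called 1 (8.33%, against 4.78% of the genes it tested), Neo1 (adjusted p = 0.034). After leaving out control replicate 1, limma called 2 higher and 1 lower (25%, against 22.2% of all genes), with a median of 0.10 against 0.22 with all libraries. Slit3, a secreted ligand of Robo receptors, stood at 21.3, 26.6 and 15.7 normalized counts in control replicates 1, 2 and 3 and at 35.3, 52.9 and 41.1 in anti-CD73 replicates 1, 2 and 3 (log2 fold change 1.00, SE 0.30, limma adjusted p = 0.201, and 0.0528 without control replicate 1). Neo1, a receptor of netrins and RGM proteins, stood at 1361, 1176 and 1118 and at 892.6, 714.7 and 902.8 (-0.54, SE 0.14, limma adjusted p = 0.177, and 0.023 without it). Rgma, a ligand of Neo1, stood at 197, 343.4 and 347.2 and at 444.5, 439.4 and 458.6 (0.64, SE 0.23, limma adjusted p = 0.252, and 0.0301 without it). The groups did not overlap for these 3 genes. They were picked for the smallest p of their list, so the separation is no further evidence. Of the 12 tested genes, 5 lay higher and 1 lower without overlap, against 11.5% and 12% of all genes. Neo1 lay lower while its ligand Rgma lay higher.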
